A study of Mus musculus with 10 samples.

Results

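The genes described here are 10 genes of the blood vessel wall and of vessel growth, out of 19938 genes measured in mouse calf muscle. They were listed by name: Vegfa, Kdr, Flt1, Tek, Ptprb, Eng, Aplnr, Pecam1, Cdh5 and Icam2. The list was made with earlier results of these data known, so its counts set beside all genes are descriptions and no independent test. Each gene was read from the probe set that the array annotation pairs with that symbol alone, and each of the 10 had exactly 1 such probe set. RNA came from the gastrocnemius (a large muscle of the calf) of C57BL/6 males, and each of the 10 arrays held the pooled RNA of 5 animals. F0 mice either exercised voluntarily (EX) or stayed sedentary (SED), were mated within their own exposure, and were 28 weeks old. Descendants in F1 and F2 all lived sedentary and were 8 weeks old, which makes EX and SED names of ancestry for them, and F2 came from matings between F1 littermates. Each F0 group was measured in 1 pool, and each EX or SED group of F1 and of F2 in 2 pools. The labels do not say that numbered pools of a group hold different animals, so p-values measure only the spread between pools, which may be technical. F0 animals and descendants differed in age, in generation and in whether they had themselves been exposed, and these cannot be told apart.

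Blood vessels of muscle are lined by endothelial cells, which form the capillaries around each fibre. Vegfa is a growth factor made largely by the muscle fibres. It acts on endothelial cells through the receptor tyrosine kinases Kdr and Flt1, and it is known for its part in the capillary growth that follows endurance training. The angiopoietin receptor Tek, the phosphatase Ptprb, the coreceptor Eng and the apelin receptor Aplnr shape the growth and stability of the vessel. Pecam1, Cdh5 and Icam2 hold endothelial cells together or serve their contact with blood cells.

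Signals are given on the log2 scale, on which a difference of 1 is a doubling. Probe sets bind unequally, so levels are compared between arrays and not between genes. All 10 genes had mean signals above the 40th percentile of genes (3.23), the level below which genes were left out, and 11963 genes were kept and tested. Icam2 had the lowest mean of the 10 (4.44, percentile 56.3), and the other genes lay between percentile 82.1 and 93.0. The fibre genes fixed as a check of the tissue (Ckm, Acta1, Myh4, Myh1, Tnnt3, Pygm, Mb and Tnni2) had mean signals of 11.7 to 13.5. A pair of arrays stood apart from the rest. Across the kept genes, F0 SED had a median correlation of 0.974 with the other arrays and F1 EX pool 1 had 0.979, against 0.986 to 0.993 for the others. F0 SED was the lowest array for 5 of the 10 genes, and F1 EX pool 1 was the highest for 5.

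Several vessel genes stood lower in F0 muscle than in muscle of the descendants. Aplnr, Pecam1, Cdh5 and Ptprb fell by 0.99, 0.71, 0.62 and 0.58, which is a level 1.99-fold, 1.64-fold, 1.54-fold and 1.49-fold lower in F0. In limma's test on all 10 arrays, 4 of the 10 genes were called lower at adjusted p under 0.05 and 0 were called higher. Of all genes tested, 1.54% were called lower and 2.33% were called in either direction. The difference was below 0 for 9 of the 10 genes, beside 6567 of all 11963 genes. The median was -0.42, beside a median of -0.02 over all genes. In 6 of the 10 genes (Kdr, Ptprb, Eng, Aplnr, Pecam1 and Cdh5) both F0 pools lay below every descendant pool, which held for 6.65% of all genes. In whole muscle, fewer endothelial cells and less RNA per endothelial cell cannot be told apart.

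Vegfa, the ligand, gave 8.19 in F0 EX and 7.73 in F0 SED. In descendants it gave 7.91 and 8.00 in F1 EX, 8.05 and 8.09 in F1 SED, 7.92 and 7.81 in F2 EX, and 7.98 and 7.83 in F2 SED. The F0 pools were thus the highest and the lowest of the 10 arrays, and the descendants lay between them. The interval of the F0 difference ran from -0.26 to 0.29.

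Kdr, the receptor through which Vegfa drives endothelial growth, gave 7.39 in F0 EX and 6.92 in F0 SED. In descendants it gave 7.65 and 7.63 (F1 EX), 7.56 and 7.69 (F1 SED), 7.64 and 7.55 (F2 EX), and 7.59 and 7.63 (F2 SED). The descendants spread little (7.62 ± 0.047, SD, n = 8), and both F0 pools were below all of them. The F0 difference of -0.46 (SE 0.12) had an adjusted p of 0.0679 in limma and was not called. Flt1, a receptor that binds Vegfa tightly and limits its supply to Kdr, gave 6.84 in F0 EX and 6.87 in F0 SED. In descendants it gave 7.13 and 6.99 (F1 EX), 6.96 and 6.96 (F1 SED), 6.92 and 6.79 (F2 EX), and 6.93 and 6.80 (F2 SED). The F0 values lay within the range of F2, so that F0 and descendants overlapped. The interval of its F0 difference ran from -0.30 to 0.14, and whether Flt1 and Kdr differ in this was not tested.

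The stretches just before the start sites of Vegfa, Kdr and Flt1 are shown because this ligand and its receptors are the signalling axis around which the other genes are grouped. Each is the 250 bases before an annotated start from RefSeq (build GRCm38.p6), read 5′ to 3′ on the gene's strand, which is the minus strand for all of them. Capitals mark matches, on either strand, to GGAAG, the core bound by ETS factors of endothelial cells, and to ACGTG or GCGTG, the core bound by hypoxia-inducible factors. The sequences below lie at chr17:46032378-46032627 (Vegfa), chr5:75978456-75978705 (Kdr) and chr5:147726012-147726261 (Flt1).
Vegfa: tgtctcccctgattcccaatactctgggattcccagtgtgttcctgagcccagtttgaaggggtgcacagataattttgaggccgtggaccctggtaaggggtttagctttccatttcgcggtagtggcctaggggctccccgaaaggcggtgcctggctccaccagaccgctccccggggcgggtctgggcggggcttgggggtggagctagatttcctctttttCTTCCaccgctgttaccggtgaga
Kdr: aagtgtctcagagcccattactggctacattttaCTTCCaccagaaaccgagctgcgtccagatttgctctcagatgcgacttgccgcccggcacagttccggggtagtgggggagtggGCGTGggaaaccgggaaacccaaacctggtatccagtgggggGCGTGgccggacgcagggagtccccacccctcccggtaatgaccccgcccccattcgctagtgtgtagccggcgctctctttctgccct
Flt1: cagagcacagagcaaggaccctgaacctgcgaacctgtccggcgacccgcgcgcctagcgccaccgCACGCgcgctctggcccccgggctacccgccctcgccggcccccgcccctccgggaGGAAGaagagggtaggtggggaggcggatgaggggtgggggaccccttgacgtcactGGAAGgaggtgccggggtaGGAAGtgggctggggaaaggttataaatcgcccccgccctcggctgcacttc
Vegfa had 1 ETS core and 0 hypoxia cores, Kdr had 1 and 2, and Flt1 had 3 and 1, and no match overlapped another. Of the 32851 starts in the same table, 64.1% hold an ETS core and 38.6% hold a hypoxia core in such a window. These are letter matches, sequence outside the windows was not searched, and nothing was measured on binding. Starts were matched for 5 of the 10 genes, which are Vegfa, Kdr, Flt1, Tek and Eng. A further start of Vegfa is annotated inside the gene, and its window, which is not shown, held 1 ETS core and 2 hypoxia cores. The window of Tek held 0 matches of either core, and that of Eng held 2 ETS cores and 0 hypoxia cores.

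Tek, the receptor of the angiopoietins, gave 7.18 in F0 EX and 6.30 in F0 SED. Among descendants it gave 6.49 and 7.25 in F1 EX, 7.31 and 7.09 in F1 SED, 7.20 and 7.29 in F2 EX, and 7.26 and 7.01 in F2 SED. F0 SED and F1 EX pool 1 were low, and the other 8 arrays lay together, so that the groups overlapped. Its F0 difference of -0.37 (SE 0.23, adjusted p 0.44 in limma) became 0.12 without the F0 SED pool. Ptprb, the endothelial phosphatase that dampens Tek, gave 7.27 in F0 EX and 6.74 in F0 SED. In descendants it gave 7.88 and 7.55 in F1 EX, 7.55 and 7.41 in F1 SED, 7.69 and 7.58 in F2 EX, and 7.57 and 7.43 in F2 SED. F0 SED was again the lower of the F0 pools, and both were below the lowest descendant. The difference of -0.58 (SE 0.12, 95% interval -0.85 to -0.31) had an adjusted p of 0.0321 in limma.

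Eng, an endothelial coreceptor for ligands of the TGF-beta family, gave 6.57 in F0 EX and 6.74 in F0 SED. Its descendants gave 6.99 and 6.88 in F1 EX, 6.90 and 6.74 in F1 SED, 6.81 and 6.81 in F2 EX, and 6.93 and 6.93 in F2 SED. The higher F0 pool and the lower F1 SED pool were level at this rounding, so the separation of the groups was slight. The difference of -0.22 (SE 0.11) was not called (adjusted p 0.324 in limma). Aplnr, the receptor of apelin, gave 5.78 in F0 EX and 5.83 in F0 SED. In descendants it gave 6.72 and 6.81 in F1 EX, 6.73 and 6.77 in F1 SED, 7.07 and 7.05 in F2 EX, and 6.62 and 6.62 in F2 SED. Here the F0 pools lay close together and far below the lowest descendant pool, and F2 EX was the highest group. Aplnr averaged 5.81 ± 0.036 in F0 (SD, n = 2) and 6.80 ± 0.17 in descendants (SD, n = 8). Its difference of -0.99 (SE 0.12, 95% interval -1.26 to -0.72) had an adjusted p of 0.00185 in limma, the smallest of the 10 genes. Apln, which encodes its ligand, differed by -0.53 (adjusted p 0.0679) and was not called.

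Pecam1, an adhesion molecule at endothelial contacts that leukocytes and platelets also carry, gave 6.78 in F0 EX and 6.18 in F0 SED. Descendants gave 7.33 and 7.07 in F1 EX, 7.11 and 7.05 in F1 SED, 7.27 and 7.29 in F2 EX, and 7.11 and 7.29 in F2 SED. Both F0 pools were below every descendant pool, with F0 SED the lower. The difference of -0.71 (SE 0.13, 95% interval -0.99 to -0.43) had an adjusted p of 0.0134 in limma. Cdh5, the cadherin of endothelial junctions, gave 7.01 in F0 EX and 7.19 in F0 SED. Its descendant pools gave 7.95 and 7.69 in F1 EX, 7.59 and 7.45 in F1 SED, 7.71 and 7.89 in F2 EX, and 7.66 and 7.80 in F2 SED. The groups did not overlap, and here F0 EX was the lower F0 pool. The difference of -0.62 (SE 0.13, 95% interval -0.90 to -0.34) had an adjusted p of 0.0268 in limma. Icam2, a ligand of leukocyte integrins on resting endothelium, gave 4.28 in F0 EX and 4.29 in F0 SED. Its descendant values were 4.76 and 4.80 in F1 EX, 4.22 and 4.51 in F1 SED, 4.50 and 4.62 in F2 EX, and 4.26 and 4.18 in F2 SED. The F0 pools lay among the SED descendants and below the 4 EX descendants, and the F0 difference of -0.20 (SE 0.12, adjusted p 0.437 in limma) was not called.

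**Figure D1:**
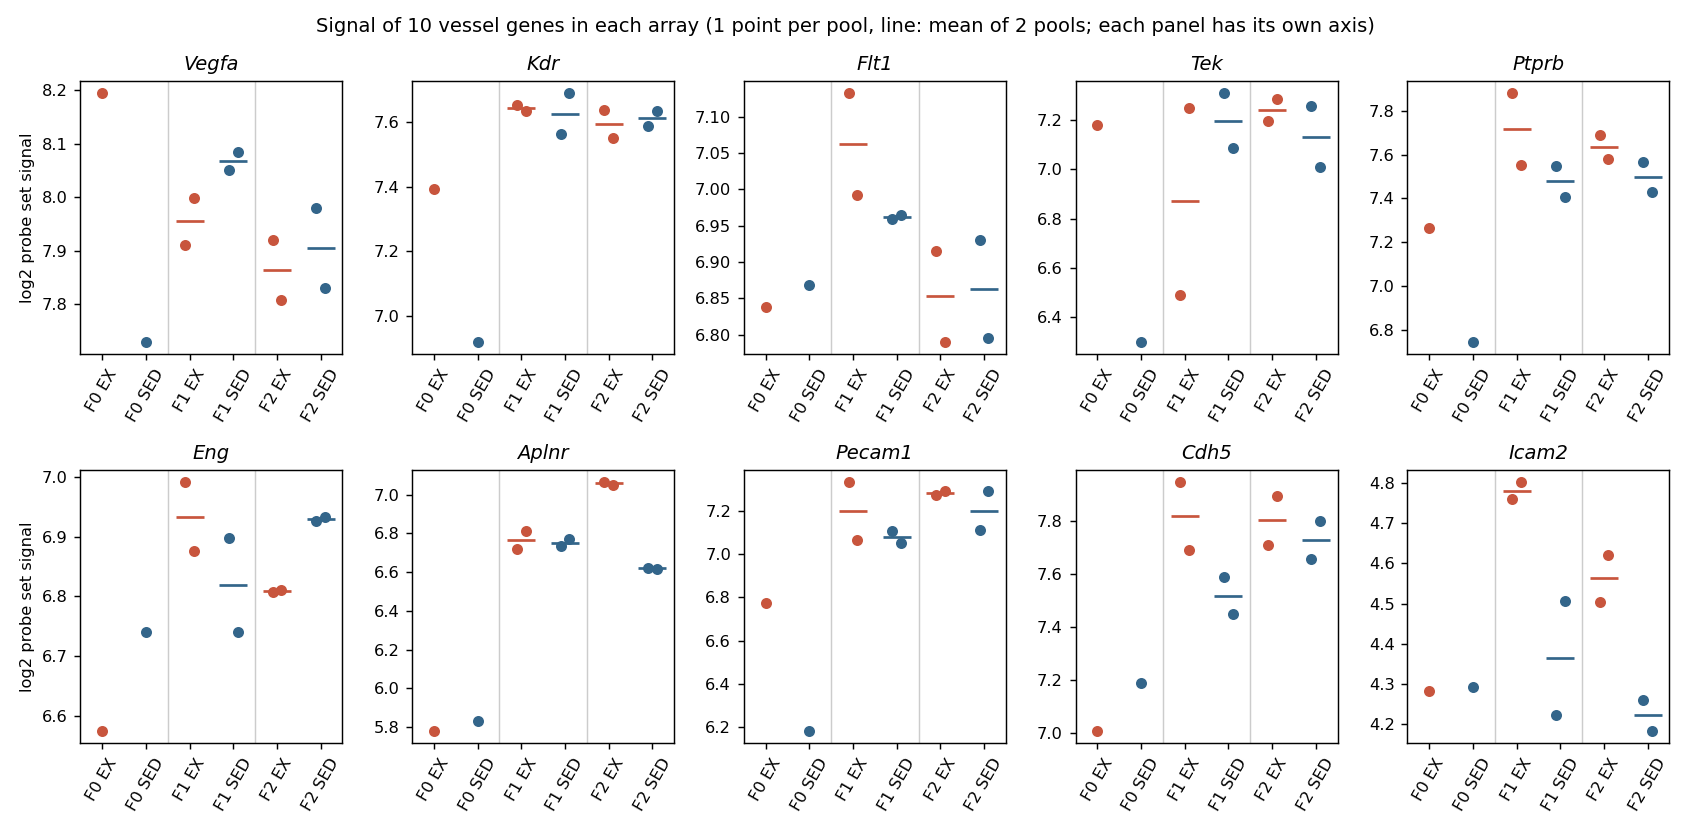
Log2 probe set signal (vertical axis, scaled per gene) of each of the 10 genes in the 10 arrays, with groups along the horizontal axis, 1 point per pool of 5 animals (red EX, blue SED) and a line at the mean of 2 pools. Aplnr, Pecam1, Cdh5 and Ptprb show both F0 points below all descendant points, Vegfa has its highest and lowest points in F0, and Icam2 is higher in EX than in SED descendants of each generation.

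The calls rested unequally on single pools. Aplnr was called in 19 of 19 alternative settings, with differences of -1.19 to -0.85 and adjusted p of 0.00104 to 0.0317. Pecam1 was called in 16 of 19 (adjusted p 0.0056 to 0.22), Cdh5 in 11 (0.0159 to 0.35) and Ptprb in 10 (0.0181 to 0.375). Without the F0 SED pool, Aplnr was the 1 gene of the 10 still called. In that fit Pecam1 differed by -0.47 (adjusted p 0.22), Ptprb by -0.41 (0.318) and Cdh5 by -0.80 (0.0587). Without the F0 EX pool, Kdr differed by -0.70 and Cdh5 by -0.43, and Cdh5 was not called. Kdr was called in 2 of the 19 settings, the fits without the F0 EX pool and without F1 EX pool 1 (-0.47). Both fits also called more of all genes than the main fit did. Leaving out a single pool of F1 SED or F2 moved Ptprb, and for some pools Cdh5, to adjusted p values of 0.0507 to 0.0693. With a pool of F0 left out, F0 rests on 1 pool that is assumed to vary like the others.

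**Figure D2:**
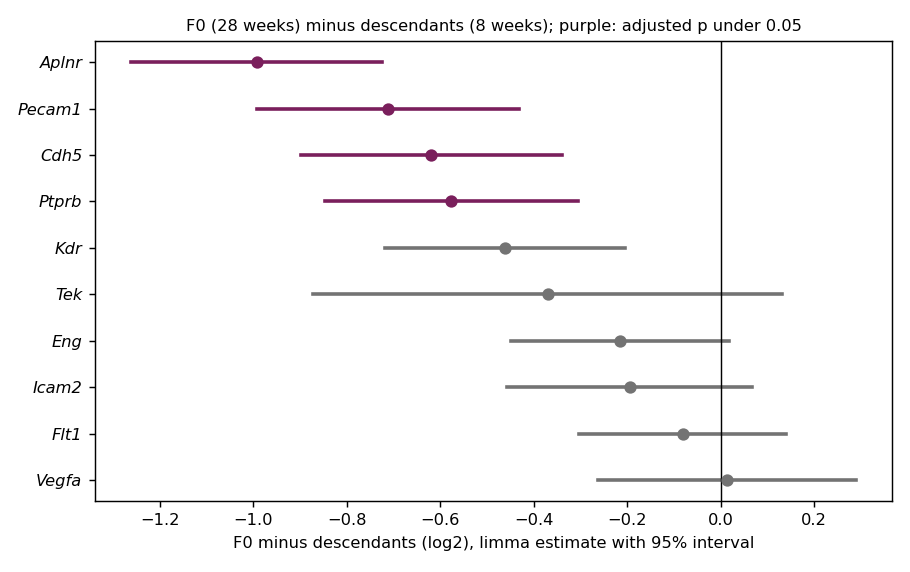
F0 minus descendants for each of the 10 genes on the log2 scale (horizontal axis), as limma estimates (points) with 95% intervals (bars), purple where the adjusted p is under 0.05. Aplnr lies farthest from 0 at -0.99, 4 genes are purple, and the intervals of Tek, Eng, Icam2, Flt1 and Vegfa cross 0.

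Wider lists of vessel genes, 109 kept genes in 7 groups by role, differed in the same direction by a smaller amount. Of these 109 genes, 81 had a difference below 0, beside 6567 of all 11963 genes, and the median was -0.11. Called lower were 5 genes, beside 1.54% of all genes, and called higher were 0. Col4a1 and Col4a2, the collagen chains of the basement membrane around vessels and fibres, differed by -0.96 and -0.95 (adjusted p 0.00803 each in limma). Cd93, a receptor of endothelial and myeloid cells, differed by -0.84 (adjusted p 0.0114). Gpihbp1, which anchors lipoprotein lipase to the capillary wall, differed by -0.50 (adjusted p 0.0268), and the endothelial receptor Notch4 by -0.48 (adjusted p 0.0334). Over 19 alternatives, Col4a1 and Col4a2 were each called in 18, Cd93 in 17, Gpihbp1 in 12 and Notch4 in 8. The number of the 109 genes called ran from 0 with array weights to 13 without the F0 EX pool, in fits that called 38 and 1231 of all 11963 genes.

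By role, receptors and coreceptors had 16 of 18 genes below 0 (median -0.24, 1 called lower), and the adhesion and junction genes had 9 of 10 below 0 (median -0.22, 0 called). Among the junction genes the tight junction protein Cldn5 differed by -0.56 (adjusted p 0.0639) and the sialomucin Cd34 by -0.62 (0.08). Inhibitors of vessel growth and matrix signals had 9 of 10 below 0 (median -0.25), and 2 of them, the collagens above, were called. The other endothelial genes had 19 of 24 below 0 (median -0.12, 2 called lower). Endothelial transcription factors had 12 of 18 below 0 (median -0.09), oxygen sensing genes 9 of 15 (median -0.03) and ligands 7 of 14 (median 0.01), with 0 called in each. Of all 11963 genes, 6567 were below 0. In limma's unadjusted test, 17.6% of all genes had a p under 0.05. So did 4 of the 18 transcription factors, 1 of the 15 oxygen sensing genes and 2 of the 14 ligands. The receptors had 8 of 18 such genes, the junction genes 4 of 10, the inhibitors and matrix genes 5 of 10 and the other endothelial genes 7 of 24.

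Markers of other cell types were measured in the same arrays, and their counts below 0 stand beside 6567 of all 11963 genes. All 6 fibroblast markers were below 0, with Col1a1 at -2.27 (adjusted p 1.47e-06 in limma) and Col3a1 at -1.50 (adjusted p 4.67e-05) called. All 7 kept pericyte markers were below 0 and 0 were called, with Pdgfrb at -0.47 (adjusted p 0.054), and 3 had an unadjusted p under 0.05, beside 17.6% of all genes. Of 4 markers of lymphatic endothelium, 3 were below 0 and 1 was called. This was Pdpn at -0.82 (adjusted p 0.0176), which was at -0.43 without the F0 SED pool (adjusted p 0.261). The lymphatic factor Prox1 was at -0.56 (adjusted p 0.0537), Reln at -0.20 and Lyve1 at 0.02. The mean deviation of the fibroblast list from its own average was -0.68 to -0.49 in F0 and -0.06 to 0.31 in descendants. For the 10 vessel genes it was -0.46 to -0.21 in F0 and 0.01 to 0.14 in descendants. Macrophage markers had 7 of 8 below 0 and muscle fibre markers 7 of 8 (median -0.15, but 0.02 with quantile normalization). All 4 leukocyte markers were below 0 (median -0.33). Adipocyte markers had 3 of 4 above 0 (median 0.25), platelet markers 2 of 3 (median 0.17), vascular smooth muscle markers 3 of 6 and erythrocyte markers 1 of 3. In limma 0 genes of these 4 lists, the leukocyte list, the macrophage list or the muscle fibre list were called. Their counts at an unadjusted p under 0.05 were 1 adipocyte, 0 platelet, 2 smooth muscle, 0 erythrocyte, 1 leukocyte, 3 macrophage and 1 muscle fibre gene. The median of the 10 vessel genes lay between -0.42 and -0.39 as deposited, with median centring, with quantile normalization and with centring on kept genes. What part these other cell types have in the vessel genes' difference was not tested.

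**Figure D3:**
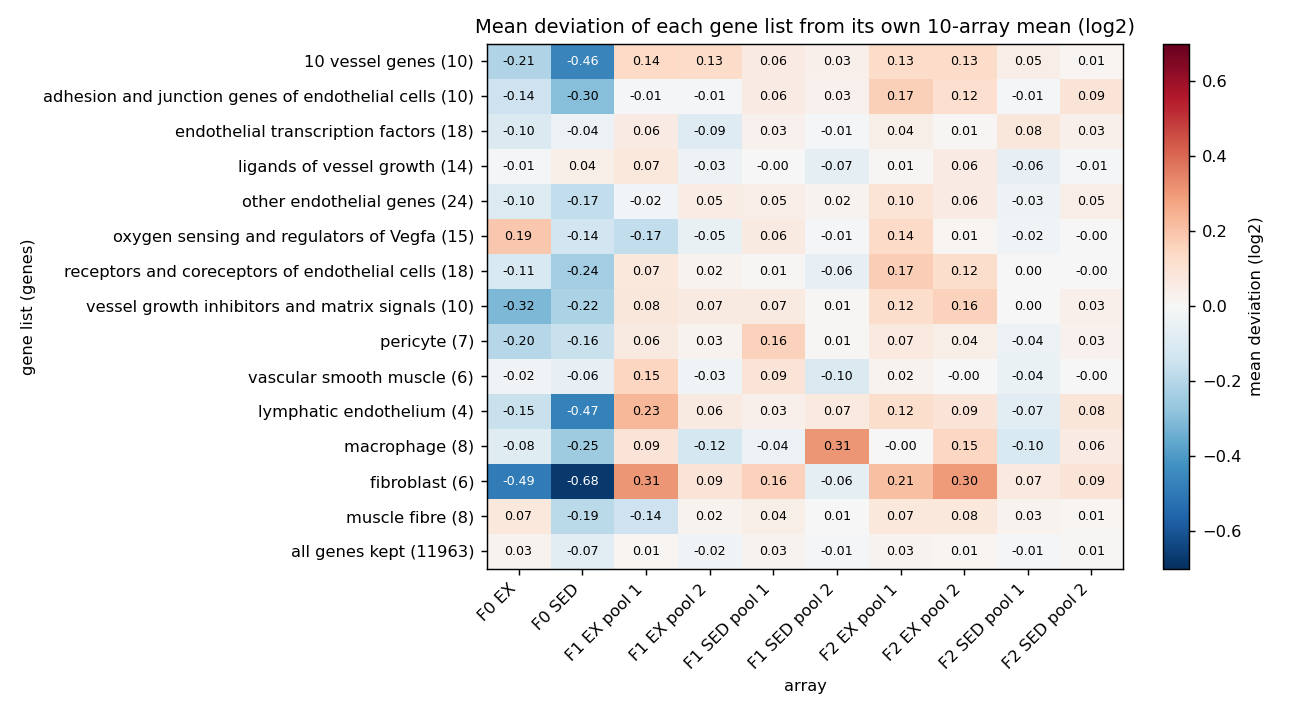
Mean deviation of each gene list from its own mean over the 10 arrays (colour and number, log2), with lists down the page, the number of genes in brackets, and arrays across. The 10 vessel genes stand at -0.21 and -0.46 in F0, fibroblast markers at -0.49 and -0.68, and all kept genes at 0.03 and -0.07.

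The exposed animals themselves were compared next, by the F0 EX pool minus the F0 SED pool. There was 1 pool on each side, so sizes are given with no test. Tek was higher by 0.88 in F0 EX, Pecam1 by 0.59, Ptprb by 0.52, Kdr by 0.47 and Vegfa by 0.46. The other genes differed by -0.18 (Cdh5), -0.16 (Eng), -0.05 (Aplnr), -0.03 (Flt1) and -0.01 (Icam2). The median of the 10 was 0.23, beside 0.08 over all genes. Past 0.5 were 3 genes upward and 0 downward, where 15.3% of all genes were past 0.5 upward and 5.38% downward. Vegfa, Kdr, Tek, Ptprb, Eng and Pecam1 differed by more than their pools did within any descendant group, which was not counted over all genes. For Tek the largest such gap was 0.76, between the pools of F1 EX. F0 SED, which stood apart from the other arrays, is 1 of the 2 pools compared.

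The sizes moved with the scaling of the arrays. Centring each array on its median over all probe sets shifted the median of kept genes to 0.22, and 5 of the 10 genes were then past 0.5, Vegfa at 0.61 and Kdr at 0.62 among them. Relative to that median they stood as they did before. Quantile normalization brought the median of all genes to 0.01 and left 1 gene past 0.5, Tek, with Pecam1 at 0.40, Ptprb at 0.33, Kdr at 0.27 and Vegfa at 0.24. Flt1, Aplnr and Icam2 turned positive with median centring (0.12, 0.10 and 0.14), so their direction was not settled.

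Among the wider lists, 57 of 109 genes were above 0 in F0 EX, beside 6934 of all 11963 genes. By at least 0.5, 14 were higher and 5 lower, beside 15.3% and 5.38% of all genes. These counts were 23 higher and 1 lower with median centring, 8 and 9 with quantile normalization, and 8 and 8 with centring on kept genes. The oxygen sensing genes had 12 of 15 above 0 and a median of 0.33. Hif1an, which hydroxylates and restrains hypoxia-inducible factors, was higher by 0.93, the hypoxia target Bnip3 by 0.88 and Ppargc1a, a coactivator of mitochondrial genes that also raises Vegfa, by 0.76. Adm, which encodes the vasodilator adrenomedullin, differed by -0.61. The receptor list had Adgrl4 at 1.15, Cxcr4 at 0.68, Nrp1, a coreceptor of Vegfa, at 0.54 and Calcrl at 0.50. Cd36, a fatty acid transporter of capillaries and fibres, was higher by 1.12. Lower in F0 EX were the endothelial transcription factor Sox18 (-0.70) and the matrix genes Col4a1 (-0.63), Col18a1 (-0.56) and Col4a2 (-0.50). All of these are differences of 1 pool from 1 pool.

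In the F1 generation, the study asked whether the ancestors' exercise was followed by differences in sedentary young. For the vessel genes limma called 0 of 10, and 0% of all genes, with 584 genes at an unadjusted p under 0.05. Icam2 was the 1 vessel gene among those 584, with 4.76 and 4.80 in F1 EX and 4.22 and 4.51 in F1 SED. The pools did not overlap, and the difference was 0.42 (SE 0.13, unadjusted p 0.012, adjusted p 0.804). Cdh5 differed by 0.30 (SE 0.14, adjusted p 0.804), Ptprb by 0.24 (SE 0.15) and Tek by -0.33 (SE 0.22), and the remaining 6 genes by less than their standard error. Without F1 EX pool 1, Tek differed by 0.05, and without F1 EX pool 2 by -0.71. These fits assume that the lone F1 EX pool varies like the others. Both EX pools were above both SED pools for Flt1, Ptprb, Cdh5 and Icam2, that is 4 of 10 genes where 13% of all genes did so. Vegfa had both EX pools below both SED pools, as did 16.6% of all genes.

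In F2 limma again called 0 of the 10 genes and 0% of all genes, with 532 genes at an unadjusted p under 0.05. Aplnr had 7.07 and 7.05 in F2 EX and 6.62 in both F2 SED pools. The gap between the groups was far wider than within them, and the difference was 0.44 (SE 0.12, 95% interval 0.18 to 0.70, unadjusted p 0.00381), or 1.35-fold, with an adjusted p of 1. Icam2 had 4.50 and 4.62 in F2 EX and 4.26 and 4.18 in F2 SED, a difference of 0.34 (SE 0.13, unadjusted p 0.0308, adjusted p 1). The other 8 genes differed by less than their standard error. EX pools were above SED pools for Ptprb, Aplnr and Icam2, 3 of 10 genes beside 25.8% of all genes, and below for Eng, beside 14.6% of all genes.

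The test of the difference between both ancestry effects (F2 minus F1) called 0 genes of the 10 and 0% of all genes, with 519 at an unadjusted p under 0.05. Aplnr had the smallest unadjusted p among the 10, with a difference of 0.43 (SE 0.16, unadjusted p 0.0272, adjusted p 0.919 in limma). Tek differed by 0.44 (SE 0.31), Eng by -0.23 (SE 0.17) and Cdh5 by -0.23 (SE 0.20). None of the other 6 differed by more than its standard error.

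Over both generations together, Icam2 had the smallest unadjusted p of the 10 genes for ancestry, and it was not past the threshold after adjustment. It averaged 4.67 ± 0.14 in EX descendants and 4.29 ± 0.14 in SED descendants (SD, n = 4 each). The difference was 0.38 (SE 0.091, 95% interval 0.18 to 0.58), or 1.30-fold, with an unadjusted p of 0.00178, rank 14 of all genes, and an adjusted p of 0.888 in limma. The lowest EX pool and the highest SED pool overlapped at 4.50 and 4.51. Aplnr differed by 0.23 (SE 0.10, unadjusted p 0.0494), Ptprb by 0.19 (SE 0.099), Cdh5 by 0.19 (SE 0.10) and Pecam1 by 0.10 (SE 0.092). In limma 0 of the 10 and 0% of all genes were called, and 597 genes had an unadjusted p under 0.05. Icam2 is also carried by leukocytes and platelets. The 4 kept leukocyte markers were all below 0 in EX descendants (median -0.41, from -0.42 to -0.18). Their mean deviation was 0.93 in F2 SED pool 2 and at most 0.32 in the other arrays, and without that pool the median was -0.12, from -0.19 to -0.07. In limma 0 of the 4 were called and 0 had an unadjusted p under 0.05. Without the same pool Icam2 differed by 0.37. The 3 kept platelet markers had a median of -0.01, from -0.18 to 0.02. What part blood cells have in the Icam2 difference was not tested. The mean deviation of the 10 vessel genes was 0.13 to 0.14 in the EX descendants and 0.01 to 0.06 in the SED descendants, with no test. These ranges hold for the deposited scale, on which F1 EX pool 1 and F1 SED pool 1 had array medians of 3.36 and 3.27. Centring arrays on their medians puts F1 EX pool 1 below F1 SED pool 1, so the ranges then overlap. All kept genes stood at -0.02 to 0.03 in EX and at -0.01 to 0.03 in SED descendants. Taken singly, 6 of the 10 genes were above 0 and 4 below. For 0 of them did all EX pools lie above all SED pools, which held for 209 of all 11963 genes. As deposited, the receptor list did not overlap, at 0.02 to 0.17 in EX and -0.06 to 0.01 in SED descendants. With median centring the same 2 F1 pools change order in this list too, and its ranges overlap. The other wider lists overlapped or met.

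**Figure D4:**
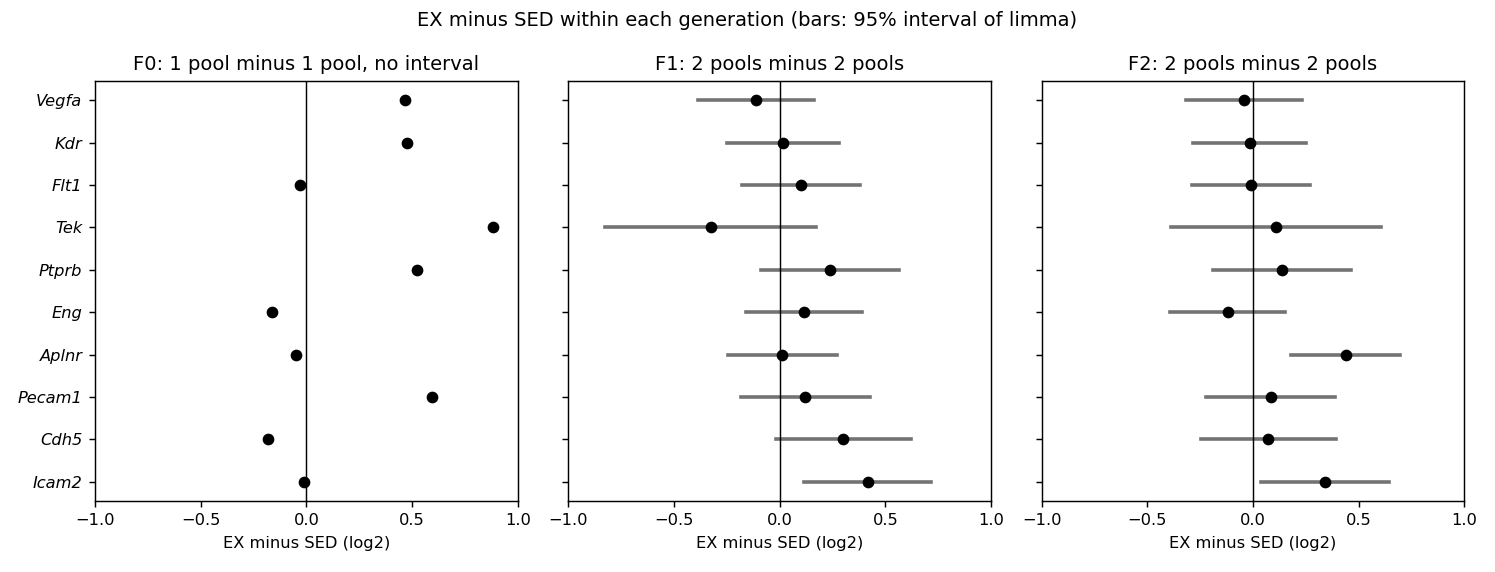
EX minus SED on the log2 scale (horizontal axis) for the 10 genes within F0, F1 and F2 (panels), with limma's 95% intervals as bars in F1 and F2 and no interval in F0, where each side is 1 pool. Tek, Pecam1 and Ptprb pass 0.5 in F0, and the intervals that exclude 0 are those of Icam2 in F1 and F2 and of Aplnr in F2, before adjustment.

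The wider lists held 0 called genes of 109 in each ancestry comparison in limma. In F1, 54 genes were above 0 and 55 below, beside 5852 above 0 of all 11963 genes. Beside 4.88% of all genes, 8 of the 109 had an unadjusted p under 0.05. The smallest of these belonged to Efnb2, the arterial ephrin ligand (0.64, unadjusted p 0.00309), and Fabp4, a fatty acid binding protein of capillaries and fat cells (-0.78, unadjusted p 0.00394). In F2, 80 genes were above 0 and 29 below, beside 7257 above 0 of all 11963 genes. The median was 0.10 beside 0.04 over all genes. Of the 109, 7 had an unadjusted p under 0.05, beside 4.45% of all genes. Nos3, the endothelial nitric oxide synthase, was at -0.42 (unadjusted p 0.00719), the inhibitors of vessel growth Thbs1 and Thbs2 at 0.42 and 0.44, and Nrp1 at 0.40. Of the 18 receptors, 17 were above 0 in F2. Over both generations the junction gene Tjp1 had the smallest p of the lists (0.40, unadjusted p 0.0103, adjusted p 0.888). Without F1 EX pool 2, 15 of the 109 genes were called in F1, beside 8.74% of all genes in that fit, and 1 in the test of the difference, beside 1.2%.

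Between the generations, F2 minus F1, limma called 0 of the 10 genes and 0% of all genes, with 509 at an unadjusted p under 0.05, none of them among the 10. Flt1 differed by -0.15 (SE 0.086, adjusted p 0.911), and its F2 pools, at 6.79 to 6.93, all lay below its F1 pools, at 6.96 to 7.13. Such a separation downward held for 1.11% of all genes. Icam2 differed by -0.18 (SE 0.091), Vegfa by -0.13 (SE 0.083) and Pecam1 by 0.10 (SE 0.092), and the groups overlapped for each. Of the wider lists 0 of 109 genes were called and 4 had an unadjusted p under 0.05, which were the netrin receptor Unc5b (0.37, unadjusted p 0.0053), Cxcr4 (0.30), Cd93 (0.26) and the flow-responsive factor Klf2 (0.27).

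Most pairs of the 10 genes varied in the same direction over all arrays, but not over the descendants alone. Of their 45 pairs, 38 had a Pearson r above 0 over the 10 arrays (median 0.47), and 22 over the 8 descendant arrays (median -0.02). Ptprb and Pecam1 had the highest r over 10 arrays (0.93), and Vegfa and Cdh5 the lowest (-0.40). All arrays enter each of these values, and the low F0 pools are shared by the pairs. Outside the vessel lists, the genes whose pattern was most like the mean deviation of the 10 were Mpzl1, a cell surface glycoprotein (r 0.996 over 10 arrays, 0.95 over 8 descendants), and Map2k6, a kinase upstream of p38 (0.98 and 0.73). Next were the sodium pump subunit Atp1b2 (0.98 and 0.63), the protease cathepsin K, Ctsk (0.98 and 0.81), Adgrl2 (0.97 and 0.85), Rcn3 (0.97 and 0.85), and Plxnd1, a semaphorin receptor of vessels (0.97 and 0.34). Ddr2, a collagen receptor (0.97 and 0.57), Deptor (0.96 and 0.63) and Palld (0.96 and 0.35) completed the 10. These are descriptions over arrays that share the F0 offset.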

How the data were processed

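The authors deposited log2 signals of 35557 probe sets (0.966 to 14.2, from which the scale was read), and these were used unchanged. Per the submitters' processing notes they came from Affymetrix Expression Console, with version, settings and genome build not given in the sources used here. Per the labels' protocols, RNA was at 98 ng/µl when 5 animals were combined. Array medians were 3.22 to 3.36. The number of arrays limits the precision.

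The platform annotation, which can be old, named 1 gene for 21789 probe sets, several genes for 1621 and no gene for 12147. Through Entrez identifiers 21698 matched RefSeq (GRCm38.p6), with 0 symbols changed. Genes with several probe sets (999) kept the one of highest mean. The 11963 genes at or above the 40th percentile were tested with limma 3.58.1 (R 4.3.3), adjusted by Benjamini-Hochberg over all of them. Models held the 4 descendant groups, generation plus ancestry in descendants (8 arrays), or generation plus ancestry in all 10 arrays (F0 minus the mean of F1 and F2). The fits were also run on simulated arrays of the same design with equal, independent noise in every array. Those runs cannot show how the fits behave where single arrays stand apart. The 10 genes, the wider lists (117 genes listed, 115 measured, 109 kept) and the markers were chosen with earlier results of these data known. Of each list, counts are given and up to 4 genes named, by smallest p or, between the F0 pools, by largest difference. Estimates of the 10 genes below their standard error are given as counts or intervals. Alternatives changed scaling, filter, probe set choice, eBayes settings, array weights and pools. Pools of the same number shared little deviation across groups (correlations -0.11 to 0.06), which does not settle whether the numbers pair samples.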

Additional observations from a re-analysis of the deposited data

Results flagged for a closer look

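Among 50 sets of 4 or 8 descendant arrays examined for the 10 vessel genes, 3 held an array far from the others, in 2 genes. This share is near the 1 set in 20 that chance gives, and sets of the same gene share arrays. Tek, the angiopoietin receptor, had a value of 6.49 in F1 EX pool 1, far below the other EX descendants, and the same array was also far below the rest of all 8 descendants. That array is among the pair that stood apart across all genes. Pecam1 had a value of 7.11 in F2 SED pool 1, below the other F2 arrays at 7.27 to 7.29.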

How the results depend on the processing

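Of the genes called lower in F0, Aplnr was called under every alternative run, and Pecam1, Cdh5 and Ptprb under some. The number of the 10 genes called in F0 minus descendants, 4 as reported, was 1 with array weights, 2 without F0 SED and F1 EX pool 1 together, and 1 to 5 when each pool was left out in turn. The number over all genes, 279 as reported, was 38 with array weights, 170 without both arrays, and 86 (without F0 SED) to 1231 (without F0 EX) with each pool left out, and 584 without F1 EX pool 1. Tek in that comparison, -0.37 as reported, ran from -0.87 without F0 EX to 0.12 without F0 SED. For F1 ancestry, 0 to 1046 genes and 0 to 1 of the 10 were called with each pool left out, the highest without F1 EX pool 2. Tek ran from -0.71 to 0.053 there, and was also 0.053 without both arrays together. For the difference of the ancestry effects 0 to 143 genes were called, the highest again without F1 EX pool 2. For F2 minus F1, 2 genes were called with robust and trended eBayes and 1 with array weights, none of them among the 10. F0 EX minus F0 SED had 5 of the 10 genes past 0.5 with median centring and 1 each with quantile normalization and with centring on the median of kept genes, the last chosen after seeing the data. Further estimates, 33 below their standard error, were rerun 595 times with 64 changes of sign and 0 calls. The cause of these changes was not tested. In a fit with the replicate block of pool number, Icam2 over both generations differed by 0.38 (adjusted p 0.891 in limma), and the block changed no call. The block was not used for F0 minus descendants, because the labels of the F0 pools carry no number.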

Other observations

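Fat cell and leukocyte markers were measured in the same muscles, and limma called 0 of the 4 kept genes of either list for ancestry in F1 or in F2. At an unadjusted p under 0.05 stood 3 adipocyte and 0 leukocyte genes in F1, beside 4.88% of all genes. In F2, 0 of both did, beside 4.45% of all genes. The 4 kept adipocyte markers were all below 0 in F1 EX, with a median of -0.78. Cidec, a protein of lipid droplets, had 4.69 and 4.68 in F1 EX and 5.56 and 5.63 in F1 SED, a difference of -0.91 (SE 0.17, unadjusted p 0.000317, adjusted p 0.804 in limma). Adipoq, which encodes adiponectin, had 4.27 and 4.24 in F1 EX and 5.60 and 5.02 in F1 SED, a difference of -1.05 (unadjusted p 0.0117, adjusted p 0.804). In F2 the same 4 genes had a median of -0.20, and for Adipoq the pools overlapped, with 4.70 and 5.09 in F2 EX and 4.51 and 5.71 in F2 SED. Fabp4, listed here as an endothelial gene, is also a fat cell gene and was at -0.78 in F1. Ptprc, the common leukocyte antigen, had 3.41 and 3.72 in F2 EX and 3.46 and 4.98 in F2 SED, where pool 2 was the highest of all 10 arrays.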
